A study of Mus musculus with 4 samples.

Results

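Plasma cells of the small intestine were taken as the cell barcodes of 1 droplet library that held at least 10 unique molecular identifiers (UMIs, 1 per captured transcript) of Jchain and 0 UMIs over Cd3d, Cd3e and Cd3g. The members were thus selected on their measured Jchain and Cd3 counts, which are given below as a description. The rule chose 177 of the 3171 barcodes of that library, and the 4 libraries of the study held 14378 barcodes. The cells were live CD45.2+ leukocytes sorted from the intraepithelial layer of uninfected C57BL/6 mice and run with the 10x Genomics 3′ v2 kit, 1 library each for small intestine, stomach, cecum and colon. Age, sex and the number of mice are not given in the labels, and the tissue label was used although the extraction text, shared by all records, mentions colons only. No tissue had a replicate library, so no p-value was computed, and all intervals are 95% intervals that cover counting error only. The tissue cannot be told apart from the animal, the sort or the library.

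Plasma cells are the end stage of the B cell lineage and devote most of their transcription to secreted antibody. In the gut most of them lie in the lamina propria and make IgA, whose heavy chain constant region is encoded by Igha. The J chain, encoded by Jchain, joins IgA into polymers that the epithelium carries into the lumen. The high secretory load is served by the endoplasmic reticulum, whose folding, export and degradation genes are under the control of Xbp1 and related factors. In GRCm38 (GENCODE vM21), Jchain lies on chromosome 5 from 88519809 to 88527891 on the minus strand. Igha lies on chromosome 12 from 113254830 to 113260236 on the minus strand, and Igkc, the kappa constant gene, on chromosome 6 from 70726435 to 70726966 on the plus strand.

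The members carried 12736 UMIs at the median (1915 to 31517), and 3523 UMIs (538 to 13589) once immunoglobulin genes and Jchain were set aside. Over single members Jchain ran from 10 to 2423 UMIs with a median of 1081, Igha from 1 to 6882 with a median of 2045, and Igkc from 0 to 14128 with a median of 5103. Immunoglobulin genes and Jchain took 75.3% of a member's UMIs at the median (0.968% to 89.1%). Over summed UMIs the share was 72.4% (72.3 to 72.4%) in the members and 5.06% in the other 2994 barcodes of the library. The members made up 5.58% of the barcodes (4.81 to 6.44%). The same rule chose 4 of 3199 barcodes in stomach (0.125%), 20 of 4244 in cecum (0.471%) and 3 of 3764 in colon (0.0797%). Of the 20 cecum barcodes 10 had fewer than 50 Jchain UMIs, and all 10 of these carried Ms4a1 and Mki67. With at least 50 Jchain UMIs the cecum share was 0.236%.

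A further 47 barcodes of the small intestine library held at least 10 Jchain UMIs together with a Cd3 UMI. They had a Jchain median of 933 UMIs and an immunoglobulin share of 68.5% at the median. Among these, 18 held a single Cd3 UMI and had a median of 0 UMIs over T cell receptor constant genes and Cd8a, whereas 29 held 2 or more and had a median of 10. The 47 barcodes count as other barcodes under the rule, and they held nearly all antibody transcripts of that group: without them the immunoglobulin share of the other barcodes was 0.156%. Ratios that moved by more than 1.5 times when these barcodes were left out are therefore given both ways.

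**Figure D1:**
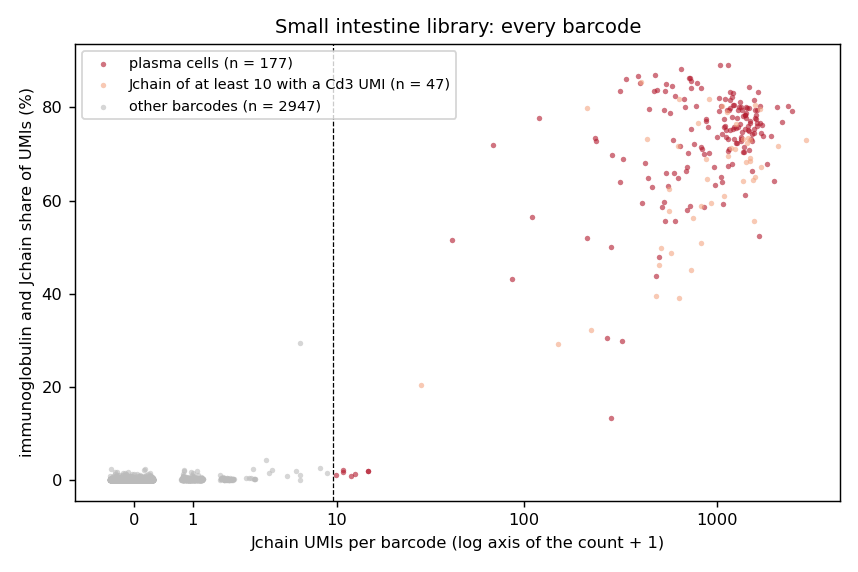
Each point is 1 barcode of the small intestine library; the horizontal axis gives Jchain UMIs (log axis of the count + 1) and the vertical axis the percentage of its UMIs in immunoglobulin genes and Jchain. The 177 members are red, the 47 barcodes with Jchain of at least 10 and a Cd3 UMI are orange, the other 2947 are grey, and the dashed line marks the threshold, with 7 members just above it at 2.25% or less.

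The threshold joined cells of different kinds. The 7 members with 10 to 15 Jchain UMIs all carried Ms4a1 (3 to 16 UMIs), which encodes the B cell surface protein CD20, and Mki67 (10 to 36 UMIs), a gene of dividing cells. Their immunoglobulin share was 0.968% to 2.25%, and Xbp1 was at 0 or 1 UMI. The next members had 42, 69 and 87 Jchain UMIs, and 169 members had at least 50. Just outside the threshold, 8 barcodes had 3 to 8 Jchain UMIs and no Cd3 UMI, and 6 of them carried Ms4a1. Another of the 8, with 6 Jchain UMIs and no Ms4a1 UMI, had 283 Igha UMIs and an immunoglobulin share of 29.4%. The data thus go against the label for the 7 lowest members, and results that rest on them are also given for the 169 members with at least 50 Jchain UMIs.

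T cells, taken as the 2538 barcodes with at least 2 Cd3 UMIs, gave the level of free RNA. Their summed Jchain was 4234 CPM (UMIs scaled to a total of 1000000, here of all UMIs), but 29 of these barcodes held at least 10 Jchain UMIs. In the remaining 2509 T cells Jchain was at 64.3 CPM (58.4 to 70.6), with a mean of 0.175 UMIs per cell and at least 1 UMI in 15.1% of cells. The members stood at 77416 CPM and a mean of 987 UMIs per cell. Igha was present in 100% of the members and in 46.9% of these T cells, at means of 2211 and 0.661 UMIs per cell. For each Jchain UMI there were 2.24 Igha UMIs and 5.39 Igkc UMIs in the members, against 3.78 and 4.72 in the T cells. Ighm, the IgM heavy chain gene, was at 0.00767 UMIs per Jchain UMI in the members and at 6.45 in the T cells. The Ighm UMIs of the T cells were therefore not in the proportion to Jchain seen in the members.

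The heavy chain class was IgA in nearly every member. A member was given a class when 1 heavy constant gene held at least 70% of its heavy constant UMIs with at least 10 UMIs. By that call 170 of the 177 members were IgA (96.05%, exact binomial 92.0 to 98.4%), 4 were IgM and 3 had no class. The 7 members just above the threshold supplied 3 of the 4 IgM cells and all 3 without a class. Among the 169 members with at least 50 Jchain UMIs, 168 were IgA (99.4%, 96.7 to 99.99%), and the remaining member was IgM with 868 Ighm UMIs. Of all heavy constant UMIs in the members, 99.6% were Igha, 0.341% Ighm and 0.0685% Ighg2b, and no Ighd UMI was seen. In the 3 other libraries together, 17 barcodes met the rule with at least 50 Jchain UMIs. Of those, which include barcodes with B cell genes, 7 were IgA (41.2%, 18.4 to 67.1%), 7 were IgM, 1 each were Ighg2b and Ighg3, and 1 cecum barcode had no class. No Ighg gene was listed for stomach, and Ighg1 and Ighg2c were not listed for colon, so IgG calls were limited there.

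The light chain was kappa in 158 members (89.3%, 83.7 to 93.4%) and lambda in 17 (9.60%, 5.70 to 14.9%), with 2 left without a call. Iglc1 was the leading lambda constant gene in 12 of the 17 lambda cells, Iglc3 in 3 and Iglc2 in 2. These constant genes are near-identical, so the split between them is uncertain. Light constant UMIs exceeded heavy constant UMIs by a median factor of 2.66 in kappa cells and 2.10 in lambda cells. The 16 kappa cells and 1 lambda cell of the other libraries gave 94.1% kappa.

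**Figure D2:**
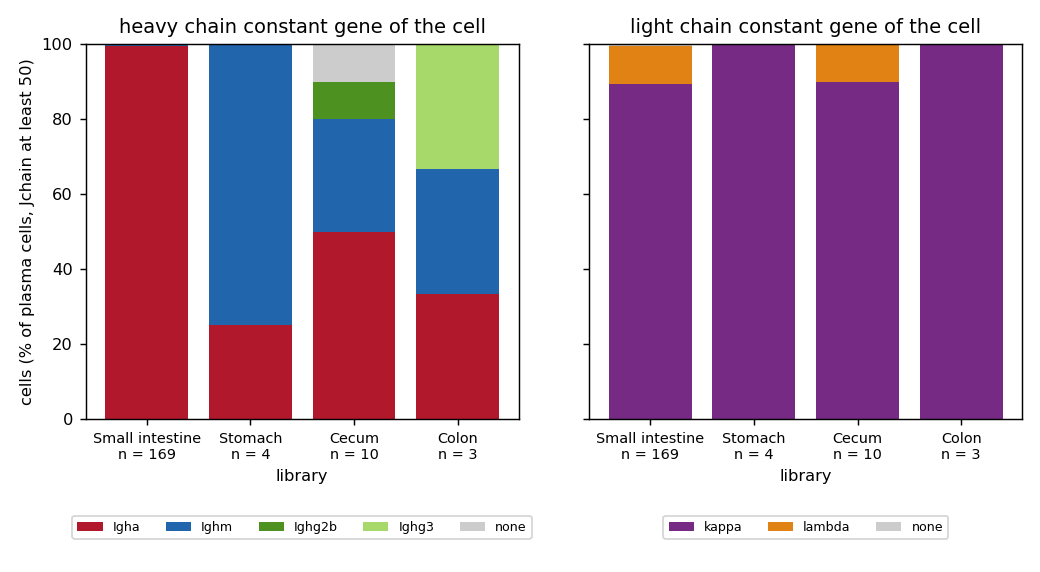
Bars give the percentage of barcodes that met the rule with at least 50 Jchain UMIs assigned to each heavy (left) and light (right) constant gene, by library, with the number of cells under each bar. Small intestine stands at 99.4% Igha, and the other 3 libraries hold 17 cells with a mix of Igha, Ighm and Ighg genes.

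Variable segments differed widely from cell to cell. Reads from the 3′ end reach variable exons rarely, with medians of 21 Igkv UMIs per kappa cell and 8 Ighv UMIs per member. A segment was called when it held at least 70% of these UMIs and at least 5 UMIs. The plan counted Igkv and Iglv genes together, which gave a light segment in 57 members, Iglv1 in 50 of them. With Igkv genes counted alone, a segment was called in 110 kappa cells, spread over 40 of the 61 listed Igkv genes. Igkv10-96 led with 12 cells, followed by Igkv1-110 with 8, Igkv5-48 with 7 and Igkv17-121 with 6. The intervals of the first and the fourth of these overlap (5.77 to 18.3% of called kappa cells for Igkv10-96 and 2.03 to 11.5% for Igkv17-121). An Ighv segment was called in 90 members over 36 genes, with Ighv1-64 in 7 cells. Among the 64 kappa cells with both calls there were 56 distinct pairs, and 14 cells fell in the 6 pairs seen more than once. The pair Ighv1-53 with Igkv6-20 occurred in 4 cells. Variable segments of 1 family share sequence, so reads may have been split between close relatives.

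Genes outside the immunoglobulin loci were compared as CPM of the UMIs outside immunoglobulin genes and Jchain, because antibody transcripts filled most of a member's UMIs. In this comparison 4805 genes reached 50 CPM in the members or in the other barcodes with at least 20 UMIs in all. Of these 13.9% were at least 2-fold higher in the members and 20.7% at least 2-fold lower, which is the background for every list below. The median log2 ratio of all genes was −0.24. As CPM of all UMIs 69 genes were higher and 3604 lower of 4075, and the median of all genes was −2.13; as UMIs per cell 861 were higher and 789 lower.

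The 15 highest named genes held known plasma cell genes beside less familiar ones. They included Derl3, a factor of endoplasmic reticulum degradation (ratio 45.8, 38.7 to 54.5), Ccr10, the receptor for the mucosal chemokine CCL28 (40.7, 34.9 to 47.6), and Ckap4, a sheet-forming protein of the rough endoplasmic reticulum (36.5, 30.6 to 43.8). Eaf2, an elongation factor partner, had a ratio of 38.3. Slpi, a secreted protease inhibitor, had a ratio of 42.0 with UMIs in 108 of 177 members. Prg2, known as the major basic protein of eosinophil granules, had a ratio of 41.6 and UMIs in 134 members. Sspn (89.1), Kcnmb4os2 (76.5), Cacna1h (54.6), Fut1 (52.2), Tmem176a (42.1), St8sia6 (40.1) and Oosp1 (36.9) were also among them, as was Rnase2b (41.1), whose 37 UMIs came from 11 members. Without the 47 barcodes the ratios were 618 for Derl3, 2946 for Ccr10 and 1918 for Prg2. The remaining other barcodes held 3 Ccr10 UMIs and 3 Prg2 UMIs. Ratios were 661 for Fut1 (113 to 26671), 521 for Rnase2b (87.8 to 21113), 478 for Cacna1h (127 to 4030) and 647 for Oosp1 (111 to 26115). With very few UMIs left in the other barcodes for these genes, the size of such ratios is uncertain. The ratios were 197 for Eaf2, 188 for Ckap4, 120 for Tmem176a, 87.9 for St8sia6 and 70.6 for Slpi. For Kcnmb4os2 and Sspn 0 UMIs were left in the other barcodes. With a floor of 3 UMIs over that group the ratios were 422 and 174, and the lower interval limits were 336 and 134. The 10 lowest named genes, among them Trdc, Trbc2, Cd160, Itgae, Mcpt2 and Cst7 (ratios 0.00177 to 0.00563), are mainly T cell genes, and the absence of Cd3g, Cd3d and Cd3e was set by the rule.

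Regulators of the plasma cell state were high. Of 20 listed genes 19 entered the comparison, 13 were at least 2-fold higher and 1 was lower. Their median log2 ratio was 2.12 (−0.49 as CPM of all UMIs). Xbp1, which drives the secretory program, had UMIs in 172 of 177 members with a median of 18 and a highest value of 77. It stood at 6089 CPM in the members and 252 CPM in the other barcodes (ratio 24.1, 22.9 to 25.4). Against 45 barcodes with B cell markers its ratio was 25.3 (18.4 to 35.8). Pou2af1, a B cell coactivator, had a ratio of 31.7, and Irf4, needed for plasma cell formation, 9.26 (7.95 to 10.8). Prdm1, which encodes the repressor Blimp-1, had UMIs in 60 members, with a highest value of 4. Its ratio to the other barcodes was 2.44 (1.93 to 3.06), but the log2 ratio was −0.49 as CPM of all UMIs. The members stood at 144 CPM and the T cells at 70.8 CPM. Bhlha15, Ell2 and Creb3l2 had ratios of 22.5, 18.3 and 13.6, and Runx1 was the lower gene (0.274). Without the 47 barcodes the ratio was 42.3 for Xbp1, 111 for Pou2af1, 55.5 for Bhlha15 and 30.1 for Ell2.

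Survival and surface receptors were mostly higher as well. Of 26 listed genes 20 entered, 14 were higher and 2 lower; the median log2 ratio was 2.41 (0.43 as CPM of all UMIs). Tnfrsf17 encodes BCMA, the receptor for the survival factors APRIL and BAFF. It had UMIs in 144 members, a median of 2 and a highest value of 11. Its level was 675 CPM in the members and 19.4 CPM in the other barcodes (ratio 34.8, 29.1 to 41.7). Outside the 47 barcodes a single UMI was found in the other barcodes, which gave a ratio of 5924 (1057 to 234534). Sdc1, which encodes the plasma cell marker CD138, had 1 to 3 UMIs in 70 members and none in the other 107. Its ratio was 34.1 (22.9 to 51.9), and 239 (98.6 to 756) without the 47 barcodes. Cd93 and Tnfrsf13b, a surface glycoprotein and a second receptor for APRIL and BAFF, had ratios of 15.3 and 11.3. Slamf7 and Cd28 had ratios of 4.88 and 5.56. Cd38 and Lag3 were the lower genes, at 0.132 and 0.137.

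Homing receptors split. Of 15 listed genes 11 entered, 2 were higher and 3 lower, beside 13.9% higher and 20.7% lower over all genes. The median log2 ratio was −0.27 (−2.05 as CPM of all UMIs), beside −0.24 for all genes. Ccr10 had UMIs in 144 members, with a median of 3 and a highest value of 19. After each cell was thinned to 1000 UMIs outside immunoglobulin genes, which left out 13 shallower members, 56.1% of members (48.1 to 63.8%) and 0.0399% of T cells carried Ccr10. Ccr9, the receptor for the small intestinal chemokine CCL25, had UMIs in 83 members with a highest value of 28. On the same thinned scale it was found in 23.2% of members (16.9 to 30.4%) and 28.1% of T cells (26.3 to 29.9%), so the members did not stand above the T cells. Its level in the members was also under 20% of that in another cell class, and it was set apart as possible free RNA. Per member, 75 cells carried both receptors, 69 Ccr10 without Ccr9, 8 Ccr9 without Ccr10 and 25 neither. Itgal had a ratio of 4.0. The gut-homing integrin genes Itga4 and Itgb7 had ratios of 1.87 and 1.14, short of 2-fold. Itgae and Cxcr3 were among the lower genes (0.00432 and 0.0602).

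**Figure D3:**
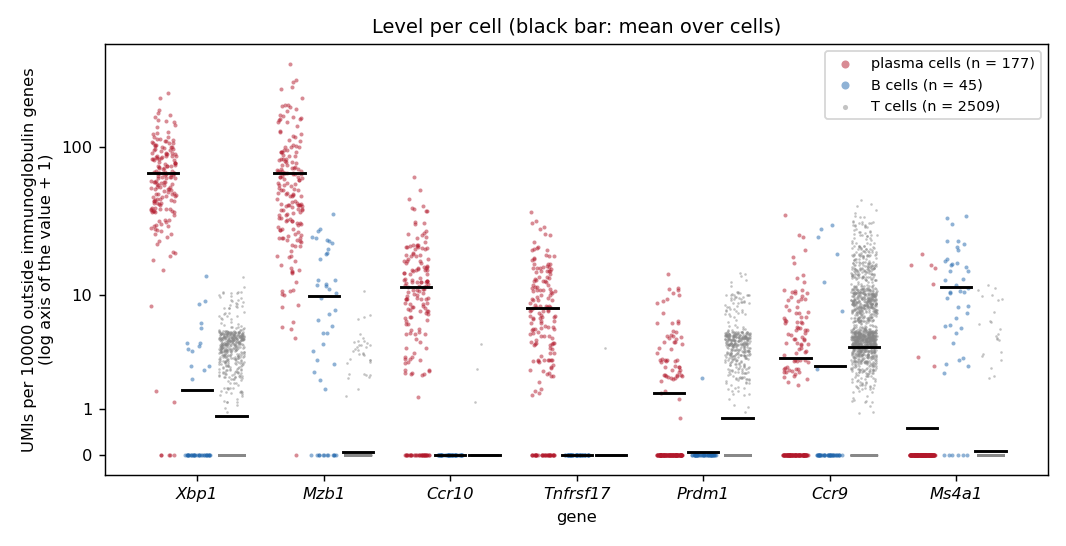
Each point is the level of a gene in 1 cell, as UMIs per 10000 outside immunoglobulin genes and Jchain (log axis of the value + 1), in the 177 members (red), 45 barcodes with B cell markers (blue) and 2509 T cells (grey), with the mean as a black bar. Xbp1, Mzb1, Ccr10 and Tnfrsf17 lie high in the members, Ccr9 overlaps between members and T cells, and Ms4a1 is seen in 8 members.

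Genes of the secretory apparatus were mostly higher. Of 30 luminal chaperone and disulfide enzyme genes 26 entered, 21 were higher and none lower (median log2 ratio 2.35, or 0.89 as CPM of all UMIs). Mzb1, a chaperone of immunoglobulin assembly, stood at 5985 CPM in the members and 174 CPM in the other barcodes (ratio 34.4, 32.4 to 36.5; 101.2 without the 47 barcodes). It had a ratio of 7.22 to the B cell barcodes. Txndc5 and Fkbp11, which act on disulfides and prolines, had ratios of 32.5 and 34.2, and 104 and 181 without the 47 barcodes. Hsp90b1, the chaperone GRP94, had a ratio of 8.73 (8.39 to 9.08), with a median of 16 and a highest value of 205 UMIs. Hspa5, the chaperone BiP that binds free heavy chains, had 2.46 (2.33 to 2.61), which turned to a log2 ratio of −0.48 as CPM of all UMIs. Pdia3 and Fkbp1a were not 2-fold apart (1.27 and 0.853).

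The translocon and signal peptidase list had 22 of 23 genes entered, with 19 higher and none lower (median 1.86, or 0.08 as CPM of all UMIs). Ssr4, a subunit of the signal sequence receptor, had a ratio of 12.04 and Sec11c, a signal peptidase subunit, 10.2, while Sec11a, its paralog, was at 1.08. Of 25 N-glycosylation genes 21 entered, 12 were higher and 1 lower (median 1.52, or −0.42 as CPM of all UMIs). St6gal1, a sialyltransferase, led with a ratio of 32.0 (94.6 without the 47 barcodes), and B4galt1 was the lower gene (0.152). Of 19 degradation genes 17 entered and 15 were higher, none lower (median 2.12, or 0.83 as CPM of all UMIs), led by Derl3 and Edem2 (18.5, and 29.0 without the 47 barcodes). Of 32 genes of transport to the Golgi 25 entered, 16 were higher and none lower (median 1.41, or −0.43 as CPM of all UMIs). Lman1, a cargo receptor, had a ratio of 10.7 and Golgb1 1.17. Each of these 5 lists had a median above that of all genes on both scales.

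Promoters of these 5 lists were searched for 3 motifs of the unfolded protein response on both strands, in RefSeq windows of GRCm38.p6 from 250 bases before to 50 bases after the start. The stress element, CCAAT and CCACG spaced by 9 bases, was in 9 of the 103 list genes with a window (8.74%) and in 37 of all 27025 genes (0.137%). Among the list genes 7 of the 9 were chaperone genes. The second form, ATTGG and CCACG spaced by 1 base, was in 3 of 103 (2.91%) and in 0.0444% of all genes, and TGACGTGG was in 9 of 103 (8.74%) and 0.714%. One or more of the motifs was in 15 of the 63 list genes called higher (23.8%) and in 4 of the 26 compared but not called higher (15.4%). The share was 0.884% of all genes and 1.68% of the 3753 compared genes with a window. Among those 3753 genes the 3 motifs were in 0.266%, 0.133% and 1.28%, above their shares of all genes. The stretches around the stress element are printed for the 4 higher genes with the highest ratio and for Hspa5, since they let the shared spacing be read directly. Capitals mark the CCAAT and CCACG parts, or their complements ATTGG and CGTGG where the element runs on the other strand. The element stood between 212 and 26 bases before the start in these genes.
Derl3 (ratio 45.8, chr10:75893222-75893280, + strand): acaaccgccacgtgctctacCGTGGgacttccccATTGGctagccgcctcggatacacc
Creld2 (ratio 12.6, chr15:88819500-88819558, + strand): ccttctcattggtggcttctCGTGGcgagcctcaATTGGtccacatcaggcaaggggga
Hsp90b1 (ratio 8.73, chr10:86705513-86705676, − strand): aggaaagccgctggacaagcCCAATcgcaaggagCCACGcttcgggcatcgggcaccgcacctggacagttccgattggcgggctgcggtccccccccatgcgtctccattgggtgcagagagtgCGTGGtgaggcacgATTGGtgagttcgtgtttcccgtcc
Syvn1 (ratio 6.15, chr19:6046512-6046570, + strand): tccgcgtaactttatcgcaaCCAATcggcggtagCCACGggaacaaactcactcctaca
Hspa5 (ratio 2.46, chr2:34772005-34772063, + strand): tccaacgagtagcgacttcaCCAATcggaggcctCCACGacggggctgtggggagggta
The window of Hsp90b1 held the element on both strands. Known motifs of the unfolded protein response were looked for in lists of endoplasmic reticulum genes, so their higher shares there are a description and no test. A match is a description of letters, and no binding was measured.

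Genes of the integrated stress response, the branch of the unfolded protein response that acts through translation control, were also high. Of 21 listed genes 15 entered, 10 were higher and none lower (median log2 ratio 1.80, or −0.85 as CPM of all UMIs). Chac1, a glutathione-degrading enzyme, had a ratio of 33.8 (25.7 to 44.9) and Asns, asparagine synthetase, 21.5 (15.8 to 29.4); without the 47 barcodes they were at 167 and 35.01. Atf3 and Ddit3 (which encodes the death-linked factor CHOP) were within 2-fold (0.674 and 1.06). Of 17 apoptosis regulators 9 entered, 1 was higher and 3 lower. The higher gene was Mcl1, a survival factor of plasma cells (2.93, and −0.23 on the log2 scale as CPM of all UMIs), and Bcl2 was lower (0.165). Of 22 genes of RNA processing and secretory ribosomes 16 entered and 13 were higher (median 2.76, or 0.69 as CPM of all UMIs), while Pabpc1 was at 0.643. Of 30 oxidative phosphorylation subunits 29 entered, 3 were higher and none lower (median 0.10, or −1.68 as CPM of all UMIs), led by Ndufa1 (3.58). Of 16 amino acid transporter and one-carbon genes 8 entered and 3 were higher (median 0.80, or −1.22 as CPM of all UMIs), with Slc7a5 at 6.62.

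Of 23 mature B cell identity genes 13 entered against the other barcodes, 8 were higher and 1 was lower (median log2 ratio 1.94, or 0.58 as CPM of all UMIs). Of 12 class II genes 7 entered, 2 were higher and 1 was lower (median −0.57, or −2.41 as CPM of all UMIs). The members with at least 50 Jchain UMIs were also set against the other barcodes with fewer than 10 Jchain UMIs. There 11 B cell identity genes entered, 6 higher and 2 lower (median log2 ratio 2.37). Of the class II genes 6 entered there, 1 higher and 4 lower (median −1.14), so the balance of class II calls depended on the threshold. A further comparison set all 177 members against 45 B cell barcodes. These held at least 2 UMIs over a set of B cell surface markers that included Ms4a1, Cd22 and Fcer2a. They also had no Cd3 UMI and fewer than 10 Jchain UMIs. They were not pure: 19 of the 45 held at least 2 UMIs of macrophage markers. Since these barcodes were chosen by their B cell markers, the levels are a description and no count over the list is read from them. Ms4a1 had 60 UMIs in 8 of 177 members and stood at 0.0950 of the B cell level; it was 3.84-fold higher than in the other barcodes, but at −3.17 on the log2 scale once members needed at least 50 Jchain UMIs. Pax5, which holds B cells in their identity, had 0 UMIs in the members and 1 UMI in the 45 B cell barcodes, so no difference was detectable at this depth. Cd79a and Cd79b, the signalling chains of the B cell receptor, stood at 0.945 and 0.709 of the B cell level, with UMIs in 163 and 156 members. Cd74, the invariant chain, had UMIs in every member with a median of 28 and stood at 0.539 of the B cell level, while H2-Aa was at 0.0802. In members with at least 50 Jchain UMIs, Ms4a1 was at 0.00344 of the B cell level, H2-Aa at 0.0490 and Cd74 at 0.532.

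Proliferation genes depended on the threshold. Of 24 listed genes 18 entered, 4 were higher and 2 lower. With members of at least 50 Jchain UMIs, and without the 47 barcodes, 15 entered, 1 was higher and 11 were lower (median log2 ratio −1.80); 14.6% of all 4844 genes were higher and 24.2% lower in that comparison. Mki67 had UMIs in 34 members and a ratio of 2.81, but a log2 ratio of −0.28 with at least 50 Jchain UMIs. Of 15 cytokine and effector genes 4 entered, none higher and 3 lower, with Gzmb (0.00759) and Ccl5 (0.00780), both highly expressed in the T cells. Of 20 interferon response genes 9 entered, 4 were higher and 1 lower, with Isg20 at 4.64 and Isg15 at 0.430. Ccr9, Runx1, Cd38, Lag3, Itgae, Cxcr3, Bcl2, B4galt1, Atf3, H2-Aa, H2-Ob, Cd72, Ms4a1, Gzmb, Ccl5, Isg15, Btg1, Trdc, Trbc2, Cd160, Mcpt2 and Cst7 were under 20% of their level in another cell class, the limit at which a gene was set apart as possible free RNA. The Ms4a1 UMIs lay in the 7 members with 10 to 15 Jchain UMIs (3 to 16 each) and in 1 of the 169 with at least 50. The part of free RNA in these UMIs was not tested.

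Markers of other cell types moved with a few members. At least 2 UMIs of another class were found in 28 of the 177 members (T cell 10, B cell 9, macrophage 10, dendritic 9, mast 2 and epithelial 4). Bst2, Ccr9, Cd79b and Epcam were not counted, since many members carried them. Leaving these members out kept 149, in which IgA stood at 100% and 756 genes were higher and 1258 lower. Siglech, a marker of plasmacytoid dendritic cells, was found in 11 of the 177 members. All 155 UMIs of Lyz2, a myeloid gene, over the 169 members with at least 50 Jchain UMIs came from a single member. No doublet caller was run, and the part of doublets in the results was not tested beyond these values.

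Among the 169 members with at least 50 Jchain UMIs, genes differed in how far their counts varied beyond counting error. Over 2104 genes with at least 50 UMIs the variance of counts relative to that expected from depth alone was 1.12 at the median and 1.68 at the 90th percentile. At few UMIs per cell this ratio stays near 1 even where levels differ, so it does not show that a sparse gene was even across cells. Ly6c2 and Ly6a, surface proteins of the Ly6 family, stood at 28.9 and 26.5, with UMIs in 133 and 111 cells. Jun and Fos stood at 22.5 and 11.8, Hsp90b1 at 20.3, Mzb1 at 14.1, Klf2 at 14.9 and Slpi at 11.7. Across these cells Fos and Fosb had a Spearman correlation of 0.72, Jun and Fosb 0.73, Mzb1 and Manf 0.59 and Jchain and Igha 0.72. These correlations describe cells of 1 library that differ in depth. Jchain chose the members, so the genes most like it are also a description. Over the 177 members they were B2m (Spearman 0.56), Tmem176b (0.52), Tnfrsf17 (0.52), Ssr4 (0.51) and Edem2 (0.51), and over the 169 members the same genes had 0.50, 0.45, 0.46, 0.44 and 0.43, among 657 genes detected in at least 50% of members.

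A group of members lacked Malat1, a long noncoding RNA retained in the nucleus. This gene was singled out after its values were seen. Malat1 had fewer than 5 UMIs in 32 of the 169 members, 22 of them at 0, and 6 to 731 UMIs in the other 137. All 2509 T cells had at least 5 Malat1 UMIs and all 45 B cell barcodes at least 14. The 32 members had a median of 1211 UMIs outside immunoglobulin genes, against 3724 in the other 137, and a median of 761 genes, against 1791. Their immunoglobulin share was 83.6% at the median, against 73.9%. The summed Malat1 level was 248 CPM in the 32 members, against 57669 CPM in the other 137. Kcnq1ot1, another nuclear RNA, had 0 UMIs in the 32 members and 283 UMIs in the other 137.

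The immediate early genes were low in the same cells. In the 32 members 26 of the 29 genes of that list entered the comparison with the other 137; 24 were at least 2-fold lower and none higher, while 11.5% of all 3877 genes were higher and 26.7% lower. Jun was at 767 CPM in the 32 members and 11557 CPM in the other 137 (ratio 0.0664, 0.0459 to 0.0929). Fosb was at 181 and 6095 CPM (0.0296), Fos at 993 and 10022 CPM (0.0991) and Klf2 at 361 and 4721 CPM (0.0765). The list took 0.731% of the UMIs outside immunoglobulin genes at the median in the 32 members, 6.29% in the other 137 and 2.03% in T cells. From the lowest to the highest cell it took 0.224% to 3.78%, 1.11% to 19.2% and 0.265% to 9.49%, so the groups overlapped. Mzb1 was at 11871 and 5946 CPM, Txndc5 at 8915 and 6459 CPM and Xbp1 at 8238 and 6467 CPM. Of 26 chaperone genes 4 were higher and 1 lower, and of 17 degradation genes 1 was higher and 2 lower. Of 15 regulators none was higher and 8 were lower (median log2 ratio −1.26), with Irf4 at 0.352 (0.150 to 0.703). Of 15 integrated stress response genes 1 was higher and 8 were lower (median −1.03). Tnfrsf17 had a ratio of 2.15 (1.62 to 2.81) and Ly6a 3.74 (3.30 to 4.24). Without the 32 members, 676 genes were higher and 954 lower than in the other barcodes, and the IgA share was 95.2%.

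**Figure D4:**
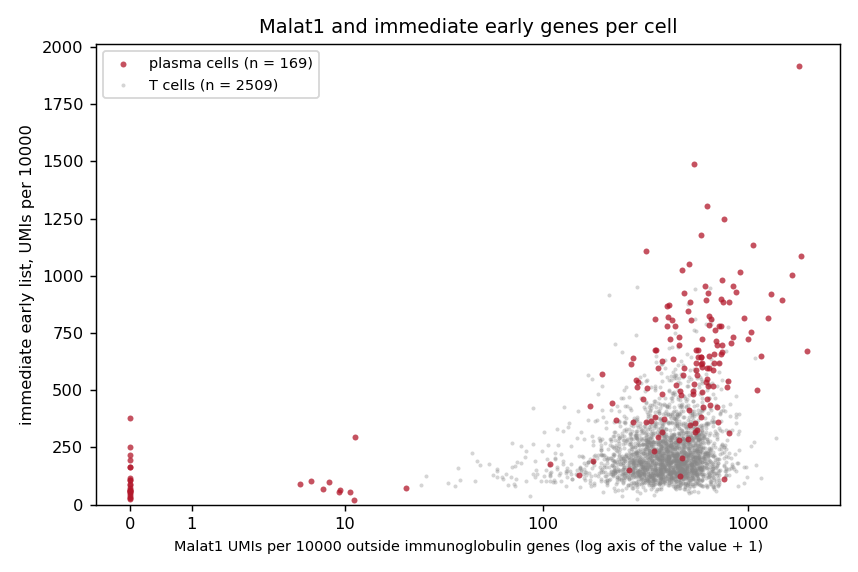
Each point is 1 cell; the horizontal axis gives Malat1 and the vertical axis the summed immediate early list, both as UMIs per 10000 outside immunoglobulin genes and Jchain (horizontal axis: log axis of the value + 1). Of the 169 plasma cells (red) 22 lie at a Malat1 level of 0 and 10 more below the 2509 T cells (grey). These have fewer immediate early UMIs at the median, but their range overlaps that of the T cells and of the other plasma cells. The other 137 plasma cells lie within or above the T cells.

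Over all 177 members, 11 of the 26 immediate early genes were higher and 2 lower than in the other barcodes (median 0.45, or −1.33 as CPM of all UMIs). Rhob and Fosb led with ratios of 7.36 and 5.63, and Btg1 was lowest (0.144). Genes of this list are known to respond to tissue dissociation, and the part of the dissociation in their level was not tested.

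Few barcodes of the other libraries met the rule with at least 50 Jchain UMIs, and some carried B cell genes. Ms4a1 had a UMI in 1 of the 169 small intestine cells, against 3 of 4 in stomach, 5 of 10 in cecum and 0 of 3 in colon, and the immunoglobulin share went down to 13.4% in small intestine, against 0.954% in cecum. The part of these cells in the lower Xbp1 and Ccr10 levels of those libraries was not tested. Xbp1 stood at 6604 CPM in the 169 small intestine cells, against 1639 CPM in 4 stomach cells, 2739 CPM in 10 cecum cells and 4613 CPM in 3 colon cells. Ccr9 had UMIs in 83 of the 169 small intestine cells, against 1 of 4 in stomach and none of 10 in cecum and 3 in colon. It was set apart above as possible free RNA, and 50.5% of the T cells of the small intestine library also carried it. The part of free RNA in this difference between libraries was not tested. Ccr10 stood at 1090 CPM in small intestine, against 137 CPM in stomach and 443 CPM in cecum, and it was not listed for colon. Ly6c2 stood at 2136 CPM in small intestine, against 5326 CPM in stomach, 201 CPM in cecum and 8970 CPM in colon. With so few cells in single libraries these are values without a test.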

How the data were processed

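The deposited files were whole-number UMI counts by barcode and gene symbol, made by the authors with Cell Ranger and Seurat 3.0.0 on GRCm38 (mm10), per the submitters' processing notes; other settings are not given in the sources used here. The small intestine library held 11750691 UMIs over 3171 barcodes (lowest 1581 UMIs); no further cell filter and no doublet caller was used. Between 1 and 6 barcodes were shared by each pair of libraries, among them that of 1 member. No ribosomal protein symbol was listed. Counts were summed over cells and scaled to a total of 1000000 UMIs outside immunoglobulin genes and Jchain (CPM). Ratios carry exact conditional binomial intervals, levels exact Poisson intervals and shares exact (Clopper-Pearson) intervals at 95%. The calculation was tested on summed counts drawn from a Poisson model at the library's own means. Variation between cells beyond counting error was not part of that simulation. Python 3.11.15, numpy 2.4.6, scipy 1.17.1, pandas 2.3.3 and matplotlib 3.10.9 were used. Positions came from GENCODE vM21, matched by symbol for 14958 of 15320 genes.

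Named genes were the 15 with the highest and 10 with the lowest ratio past 2-fold whose interval excluded 1, passing over immunoglobulin, ribosomal, sex-linked, T cell receptor segment and unnamed genes; the 2 highest and 2 lowest of each list; and 13 fixed genes. Genes under 20% of their level in another class are marked as possibly free RNA. Other genes were named after their values were seen. Members, lists and rules were chosen with earlier results of these data known. The planned comparison of IgM with IgA cells needed 10 cells each and was not made, as 4 members were IgM. Some genes that met these rules are not reported here.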

Additional observations from a re-analysis of the deposited data

How the results depend on the processing

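No paired analysis was possible because each tissue had 1 library. The share of members, 5.58%, was 7.06% with Cd3-positive barcodes kept. The summed immunoglobulin share, 72.4%, was 70.7% and 73.9% at Jchain thresholds of 5 and 20, 73.9% at 50, 70.9% with Cd3-positive barcodes, 72.5% without the deepest 5%, 70.8% without cells of few Malat1 UMIs, and 74.0% and 75.1% without members carrying other markers (14 and 149 left; the second filter, the Malat1 filter and the removal of the 47 barcodes were chosen after seeing the data). IgA was 99.4% at thresholds of 20 and 50 and 100% under both marker filters; kappa kept within its interval under every alternative. Jchain in T cells, 4234 CPM, was 6293 and 3715 CPM with at least 1 and 4 Cd3 UMIs and 64.3 CPM without barcodes of Jchain 10 or more.

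The 670 higher and 993 lower genes became 69 and 3604 as CPM of all UMIs, 1149 and 2309 at 10 CPM, 3585 and 3080 with no level filter, 1030 and 1627 at 1.5-fold and 265 and 431 at 4-fold; with the 14 members 1414 were higher. Of 1847 alternatives for 103 named genes 30 reversed, as log2 ratios: with thresholds of 20 and 50, H2-Ob −0.035 and −0.032, Mki67 −0.29 and −0.28, Ms4a1 −3.17 and −3.17; as CPM of all UMIs, H2-Ob −0.021, Hspa5 −0.48, Mcl1 −0.23, Mki67 −0.29, Ndufa4 −0.25, Prdm1 −0.49 and Tk1 −0.17; with 14 members, Cd72 1.29, Cxcr3 1.25, Isg15 0.70, Mcm3 0.98, Mcm4 0.96 and Runx1 0.27; with 149 members, Ms4a1 −1.92; against T cells, H2-Aa 0.35; against B cells, Ccl5 0.55, Cd74 −0.89, Cd79a −0.082, Cd79b −0.50, Gzmb 0.72, H2-Ob −2.72, Isg15 0.83, Mki67 −0.31 and Ms4a1 −3.40. The cause was not tested where no value above shows it. Members held as few as 538 UMIs outside immunoglobulin genes, so a gene without a UMI in a cell was not detectable at this depth, not absent.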

Other observations

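Iglv1, a lambda variable gene, was found in cells called kappa. It had UMIs in 148 of the 158 kappa members, with a median of 25 and a highest value of 263, and a median of 42 in the 17 lambda members. It was found in 12 of 2509 T cells (0.478%) and in 1 of 45 B cell barcodes. Among kappa cells of the other libraries with at least 50 Jchain UMIs, the median was 35 in 4 stomach cells, 3 in 9 cecum cells and 1 in 3 colon cells. Iglv1 was the leading light variable gene in 34 kappa members when Igkv and Iglv genes were counted together. Igkc held 99.1% of the light constant UMIs of a kappa member at the median.

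Ighm was found in 55.0% of the T cells with fewer than 10 Jchain UMIs, at a mean of 1.13 UMIs per cell, but in 34 of the 177 members.

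Epcam, an epithelial adhesion gene, had UMIs in 79 of 177 members. After thinning to 1000 UMIs outside immunoglobulin genes it was found in 19.5% of members (13.7 to 26.4%), 11.8% of T cells and 2.22% of B cell barcodes.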
